A study of Mus musculus with 26 samples.

Results

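The 6 actin genes of the mouse were followed across skeletal muscle regeneration and across differentiation of C2C12 myoblasts with and without Mettl3 knockdown. They are Acta1, Actc1, Acta2, Actg2, Actb and Actg1, and they were chosen as the rows with these symbols in both deposited tables. All 6 were found once in each table, among 53465 listed genes in the regeneration table and 55487 in the C2C12 table. The regeneration table holds tibialis anterior (TA) muscle of C57BL/6J mice injected with cardiotoxin (CTX), a venom toxin that kills fibres and sets off repair. It has 2 libraries each on days 0, 1, 3, 5 and 10. The study's methods give the mice as male and aged 6 weeks, while sex-linked genes, described below, go against male mice in some libraries. Day 0 is the label of the reference libraries, and since saline is named as the control treatment, whether this muscle was untouched or given saline is not settled. The C2C12 table holds a mouse myoblast line, with CTRL and Cas9M3 cells in growth medium (GM, labelled D0) and after 3 days in differentiation medium (DM3, labelled D3), with 2 libraries in each of the 4 groups. Cas9M3 cells are a stable, puromycin-selected line in which a catalytically dead Cas9 fused to the KRAB repressor was aimed at the promoter of Mettl3, the m6A methyltransferase. The deposited design text calls these cells knockouts, and which guide they carry is not stated in the sources used here. Neither table names the animals or cultures behind the libraries, so p-values measure only the spread between these libraries, which may be technical.

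Actin is the protein of the thin filament, and each of the 6 genes encodes a nearly identical monomer. Acta1 and Actc1 encode the sarcomeric actins, skeletal and cardiac alpha-actin, and the cardiac form is also made by embryonic and regenerating skeletal muscle. Acta2 and Actg2 encode the smooth muscle alpha- and gamma-actins, found in vessel walls and gut. Acta2 is also a marker of activated fibroblasts and is made by cultured myoblasts. Actb and Actg1 encode the cytoplasmic beta- and gamma-actins, which build the cytoskeleton of almost every cell and are widely used as reference genes. Many muscle actin promoters carry a CArG box, the site bound by serum response factor (SRF), whose cofactor MRTF is held back by free actin monomers.

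The start of each coding sequence is shown because the coding sequences begin at different points and differ in their first codons. The first 30 coding bases, read 5′ to 3′ from GENCODE M21 transcripts, were as follows, with capitals where a base differs from the one Acta1 has at the same distance from the stop codon.
Acta1: atgtgcgacgaagacgagaccaccgctctt
Actc1: atgtgTgacgaCgaGgagaccaccgctTtG
Acta2: atgtgTgaAgaGgaAgaCaGcacAgcCctG
Actg2: ATGTGTgaagaAgagaccaccgcCcttgtg
Actb: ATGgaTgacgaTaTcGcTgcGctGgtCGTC
Actg1: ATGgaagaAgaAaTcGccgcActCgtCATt
Of these 30 bases, Actc1 differed from Acta1 at 5, Actg2 at 8, Acta2 at 9, Actg1 at 12 and Actb at 14. Over 1128 aligned coding bases, pairs of genes were 81.65% to 88.65% identical. The closest pair was Actb and Actg1 at 88.65%, and Acta1 and Actc1 followed at 86.17%.

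How well short reads can separate the genes was checked by cutting each transcript into all windows of 100 bases. None of the windows of Acta1, Actc1, Acta2 or Actg2 occurred in another annotated gene. For Actb, 1.1% of transcript windows did, shared with Lrrc58 and the pseudogene Gm15725. For Actg1 the share was 51.05% of the transcript and 91.93% of its coding part, all with annotated copies such as Gm12715 and Actg-ps1. Gm12715 was listed at 46.7 to 114 FPKM in C2C12 cells and 4.15 to 10.2 FPKM in muscle. How reads that fit several places were counted is not given in the sources used here, so the levels of Actg1, and its ratio to Actb, are uncertain. FPKM is a fragment count divided by transcript length and by a measure of library size.

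On GRCm38, all 6 genes lie on the minus strand. Acta1 is at chr8:123891769-123894751, Actc1 at chr2:114047282-114053548, Acta2 at chr19:34241090-34255590, Actg2 at chr6:83512905-83536265, Actb at chr5:142903115-142906754 and Actg1 at chr11:120345690-120348542. Promoters from 250 bases before to 50 bases after the start were taken from RefSeq (GRCm38.p6), which matched 4 of the 6 genes. Actb and Actg2 had no entry. The window of Acta2, in which no CArG box was found, reached only 33 bases upstream of the gene as annotated in GENCODE, so nothing is read from it. That of Actc1 lay wholly within the span of the gene in GENCODE, which has a second transcript that starts further upstream. The 3 boxes found are shown in capitals with 10 bases on each side, because 2 of them belong to the sarcomeric genes.
Acta1: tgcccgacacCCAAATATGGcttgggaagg
Actc1: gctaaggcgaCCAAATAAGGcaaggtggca
Actg1: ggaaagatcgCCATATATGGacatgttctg
They lie at chr8:123894829-123894858, chr2:114052903-114052932 and chr11:120348566-120348595, and the first base of each box is at -73, -47 and -90 relative to the RefSeq start. A CArG box on either strand was found in 1.63% of 32851 promoter windows of this length. An E-box, CANNTG, the kind of site bound by MyoD, was found in the windows of Acta1, Actc1 and Actg1 and in 72.31% of all windows. These are matches of letters, and no binding was measured.

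The libraries held 14170000 to 18780000 reads on genes in the regeneration table and 14260000 to 29550000 in the C2C12 table, as read from the steps in the low FPKM values. The library size used for FPKM did not follow these reads. In the first day 0 library, with 16750000 reads, 1 read on 1 kb was worth 0.0804 FPKM. In the first day 3 library, with 14310000 reads, it was worth 0.0507 FPKM. Mettl3 was at 4.68 to 5.65 FPKM in the 4 CTRL libraries and at 0.0805 to 0.331 FPKM in the 4 Cas9M3 libraries, as labelled. In muscle, Xist, the RNA of the inactive X chromosome, was at 5.77 to 10.0 FPKM in both day 0 libraries, both day 10 libraries and the second day 3 library, and at most 0.152 FPKM in the other 5. The Y-linked gene Ddx3y had the opposite pattern, at most 0.101 FPKM in those 5 libraries and 6.10 to 11.4 FPKM in the others. This goes against male mice throughout, and outside day 3 the split follows the days, so a fit with a term for Xist is given beside the results it changes. That term rests only on the difference between the first and second day 3 libraries. On day 3 against day 0 it gives the same estimates as leaving out the first day 3 library, so these are not separate checks. In C2C12 cells the rRNA gene CT010467.1 took 0.391% to 0.514% of reads in the first library of each group and 8.03% to 27.3% in the second, with the highest share in the second CTRL GM library. The tables were scaled separately, so levels were compared only within a table. Muscle was sequenced in bulk, so fewer cells of a type and less RNA per cell cannot be told apart.

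In regenerating muscle the sarcomeric pair made up most of the actin RNA on every day, but its share was lowest on day 3. The 2 genes together held 99.1% and 98.8% of the summed FPKM of the 6 genes on day 0. They held 97.5% and 98.2% on day 1, 90.3% and 90.6% on day 3, 98.2% and 98.4% on day 5, then 99.2% and 98.5% on day 10. Both day 3 libraries lay below all 8 others. The smooth muscle pair held 3.76% and 4.42% of the sum on day 3, against 0.133% and 0.135% on day 0. The cytoplasmic pair was at 5.95% and 5.03% on day 3, against 0.811% and 1.06% on day 0. Shares within a library do not depend on how libraries were scaled, and they are given without a test.

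**Figure D1:**
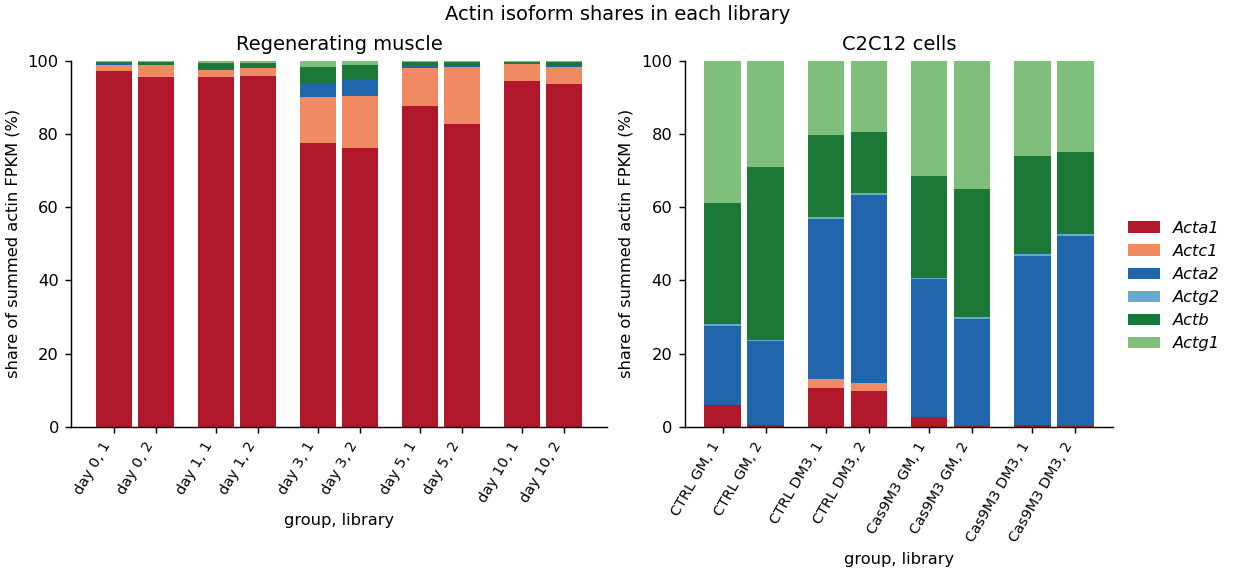
Share of each actin gene in the summed FPKM of the 6 genes (percent, stacked to 100), 1 bar per library, for regenerating muscle on the left and C2C12 cells on the right. Red and orange (sarcomeric) fill at least 90.3% of every muscle bar, while in C2C12 cells blue (smooth muscle) and green (cytoplasmic) dominate and the sarcomeric part is visible mainly in the CTRL DM3 libraries.

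Acta1, the actin of the adult skeletal thin filament, was among the 6 highest genes of the whole transcriptome in every muscle library. Day 0 had 17173 and 19800 FPKM, and day 1 had 16247 and 16727 FPKM. It then stood at 5994 and 6530 FPKM on day 3. Day 5 had 18156 and 19077 FPKM, and day 10 had 23304 and 19739 FPKM. Both day 3 libraries were below all 8 others, and the remaining days lay within a narrow band. Of all reads on genes, Acta1 alone took 1.27% and 1.42% on day 3 and 1.96% to 3.07% on the other days. Between days 3 and 0 (1.96% and 2.51%) this share differed less than the FPKM did.

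Each gene was tested with limma on log2(FPKM + 0.1), a scale that understates the change of low genes, with all libraries of a table in 1 fit and adjustment over every gene tested. Actg2 passed the filter on low values only through its day 3 libraries, so its tests on that day are void and it is left out of the counts. At an adjusted p of 0.05 or less, the other 5 actin genes were called between day 3 and day 0, with 4 higher and 1 lower, where 48.8% of the 16753 genes tested were called (24.5% higher and 24.3% lower). Acta1 was the member that fell, by 1.56 on the log2 scale (SE 0.295, adjusted p = 0.00403). Against day 1, the log2 difference of Acta1 on day 3 was -1.40 (adjusted p = 0.0123), and from day 3 to day 5 it rose by 1.57 (adjusted p = 0.0173). The call against day 0 was kept without any 1 of the 4 libraries (adjusted p up to 0.0177), whereas that from day 3 to day 5 was lost without any 1 of them (adjusted p = 0.0664 to 0.111). Quantile normalization, which gives every library the same set of values, turned the day 3 change of Acta1 against day 0 to 0.08 (adjusted p = 0.802). It also made the rises of Actc1 (3.24), Acta2 (4.44), Actb (2.28) and Actg1 (1.30) larger. Without a filter on low values the fold change was unchanged, but the call was lost (adjusted p = 0.419). The same 2 settings ended the calls of Acta1 between day 3 and days 1, 5 and 10 as well (adjusted p = 0.16 to 0.608). A pseudocount of 0.01 also ended those between day 3 and days 1 and 5 (adjusted p = 0.0691 and 0.0843).

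Actc1, the cardiac form that is also made early in skeletal myogenesis, behaved differently from its sarcomeric partner. Its values were 327 and 652 FPKM on day 0 and 297 and 397 FPKM on day 1. On day 3 they were 982 and 1239 FPKM, and on day 5 they reached 2163 and 3590 FPKM. On day 10 they were 1137 and 995 FPKM, still above both day 0 libraries. The rise over day 0 was 1.26 on the log2 scale on day 3 (SE 0.375, adjusted p = 0.0264, and 3.24 under quantile normalization) and 2.59 on day 5 (SE 0.375, adjusted p = 0.0109). The day 10 difference of 1.20 did not pass (adjusted p = 0.409), in a comparison where 0.00597% of genes were called. On day 5, 25.5% of genes were called against day 0 (12.9% higher and 12.5% lower). With the term for Xist, the day 3 call of Actc1 was lost (adjusted p = 0.0637), as was the day 5 call (2.93, adjusted p = 0.164), in a fit that called 0 genes between days 5 and 0. The day 3 call was also lost without the first day 0 library (0.76, adjusted p = 0.151) or without either day 3 library (adjusted p = 0.0585 and 0.126). The day 5 call was lost without the first day 0 library (adjusted p = 0.0692) or the second day 5 library (adjusted p = 0.0847).

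The balance of the sarcomeric pair moved with these levels. Actc1 made up 1.87% and 3.19% of the pair on day 0 and 1.79% and 2.32% on day 1. It made up 14.1% and 15.9% on day 3 and 10.6% and 15.8% on day 5, then 4.65% and 4.80% on day 10. The share on days 3 and 5 was thus above that of every library of the other days, and days 3 and 5 overlapped each other. On day 3 both a lower Acta1 and a higher Actc1 entered the ratio, whereas on day 5 Acta1 was at the day 0 level (log2 difference 0.01, 95% interval -0.67 to 0.70).

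**Figure D2:**
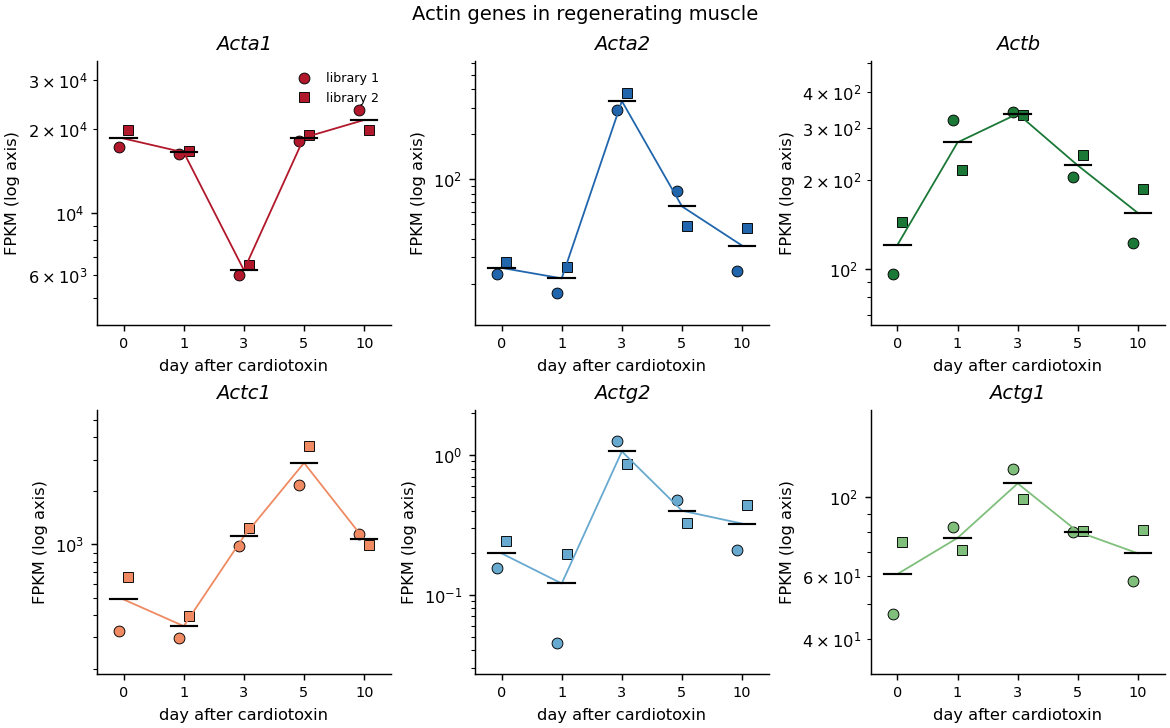
FPKM (log axis) of the 6 actin genes in muscle on days 0, 1, 3, 5 and 10 after cardiotoxin, with a circle and a square for the 2 libraries of a day and a bar for their mean. Acta1 dips on day 3, Actc1 peaks on day 5, and the other 4 genes peak on day 3.

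Acta2, smooth muscle alpha-actin, had the steepest change of the 6. It was at 23.3 and 27.8 FPKM on day 0 and 17.4 and 26.1 FPKM on day 1, and rose to 289 and 378 FPKM on day 3. Later it was at 82.9 and 48.7 FPKM (day 5) and at 24.4 and 47.5 FPKM (day 10). The day 3 libraries stood far above all others, and both day 5 libraries were above those of days 0, 1 and 10. Against day 0, the rise was 3.69 on the log2 scale on day 3 (SE 0.38, adjusted p = 4.38e-04) and 1.32 on day 5 (SE 0.38, adjusted p = 0.0408). The day 5 call was lost when any 1 of the 4 libraries compared was left out (adjusted p = 0.0799 to 0.193), and with the term for Xist (adjusted p = 0.256). The day 3 call was kept without any 1 library (adjusted p up to 0.00545). From day 3 to day 5 it fell by 2.38 on the log2 scale (adjusted p = 0.011).

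Actg2, smooth muscle gamma-actin, was hardly expressed in muscle. It was at 0.155 and 0.240 FPKM on day 0, 0.0448 and 0.196 FPKM on day 1, 1.27 and 0.857 FPKM on day 3, 0.473 and 0.326 FPKM on day 5, then 0.210 and 0.436 FPKM on day 10. Its day 3 values stand for 39 and 27 reads, and its day 0 values for 3 and 5 reads. A high day 3 value was a condition for testing Actg2, so its log2 differences of 1.96 from day 0 to day 3, 2.47 from day 1 to day 3 and -1.49 from day 3 to day 10 are given as values alone.

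Other smooth muscle genes changed less and in both directions. Between days 3 and 0, 4 of 9 contractile genes of smooth muscle were higher and 2 were lower, with a median log2 difference of 0.76 against 0.01 over all genes. Cald1, caldesmon, rose by 1.37, whereas Myh11, the smooth muscle myosin heavy chain, fell by 1.42 and Synpo2, an actin-bundling protein, fell by 1.55 on the log2 scale. The summed FPKM of these 9 genes was 140.0 and 163 on day 0 and 144 and 161 on day 3. Of 6 mural cell markers, 3 were higher (Pdgfrb 1.29) and 1 was lower (Abcc9 -1.28). Of 10 fibroblast and matrix markers, 8 were higher and 0 lower, led by Cthrc1 at 4.82, and their sum went from 74.6 and 238 FPKM to 1062 and 1123 FPKM. All of these counts stand beside the 48.8% of genes called between days 3 and 0 (24.5% higher and 24.3% lower). The part of smooth muscle, mural or fibroblast cells in the Acta2 signal was not tested.

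Actb, the main cytoplasmic actin, was at 96.4 and 145 FPKM on day 0, 321 and 216 FPKM on day 1, then 340 and 332 FPKM on day 3. Day 5 had 205 and 244 FPKM, and day 10 had 123 and 187 FPKM. Every library of days 1, 3 and 5 exceeded both of day 0 and both of day 10. The rise on day 3 was 1.51 on the log2 scale (SE 0.29, adjusted p = 0.00433) and was kept without any 1 library (adjusted p up to 0.0316). On day 1 the difference was 1.16 (SE 0.29, adjusted p = 0.0576) and on day 5 it was 0.92 (adjusted p = 0.0529), and neither passed. The day 5 difference passed with a filter at 1 FPKM (adjusted p = 0.0472), median-ratio scaling (0.0497), quantile normalization (0.0292) or without the second day 0 library (0.0443), and the day 1 difference without the second day 1 library (adjusted p = 0.0414). None of the 6 actin genes was called on day 1, when 6% of genes were (3.53% higher). From day 3 to day 10, Actb fell by 1.15 on the log2 scale (adjusted p = 0.0176), in a comparison where 37.9% of genes were called. That fall was lost without either day 3 library or the first day 10 library (adjusted p = 0.0744 to 0.112) and with the term for Xist (adjusted p = 0.08).

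Actg1, the other cytoplasmic actin, moved less. It stood at 46.9 and 74.9 FPKM on day 0, 82.6 and 71.1 FPKM on day 1, 120 and 99.0 FPKM on day 3, 79.7 and 80.4 FPKM on day 5, then 58.2 and 80.9 FPKM on day 10. Both day 3 libraries were above all others, which lay between 46.9 and 82.6 FPKM. The day 3 rise was 0.88 on the log2 scale (SE 0.251, adjusted p = 0.0223), and it did not pass with the term for Xist (adjusted p = 0.119) or with only days 0 and 3 in the fit (adjusted p = 0.0523). It was lost as well without the first day 0 library (0.54, adjusted p = 0.131) or either day 3 library (adjusted p = 0.115 and 0.052). Actb made up 67.3% and 65.9% of the cytoplasmic pair on day 0, 79.5% and 75.3% on day 1, 74.0% and 77.0% on day 3, 72.0% and 75.2% on day 5, then 67.8% and 69.8% on day 10. The share of Actb on days 1, 3 and 5 was above that of days 0 and 10 in every library.

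Between day 3 and the 2 days next to it in the design, the members' own calls were these. Against day 1, Actc1 (1.68, adjusted p = 0.0146) and Acta2 (3.95, adjusted p = 0.00207) were higher and Acta1 was lower on day 3, where 31.1% of genes were called (14.5% higher and 16.6% lower). Against day 3, day 5 called Acta1 higher and Acta2 lower, where 12.7% of genes were called (7.23% higher and 5.46% lower), while Actc1 did not pass (1.34, adjusted p = 0.0564). By day 10, Acta1 was higher than on day 3 (1.78, adjusted p = 0.00355), while Acta2 was lower (-3.27, adjusted p = 9.5e-04). Actc1 was not called between days 3 and 10 (-0.05, 95% interval -0.93 to 0.82), except under quantile normalization (-1.78, adjusted p = 0.0145). The calls of Acta1 and Actc1 against day 1 were lost without the second day 3 library (adjusted p = 0.0516 and 0.0929) or the first day 1 library (adjusted p = 0.0503 and 0.0675), and that of Acta1 also without the second day 1 library (adjusted p = 0.0517). The fall of Acta2 from day 3 to day 5 was lost without the second library of either day (adjusted p = 0.0843 and 0.0765). With the term for Xist, the calls of Acta1 and Actc1 against day 1 and both day 5 calls were lost, at adjusted p = 0.0651 to 0.0978. These comparisons share the day 3 libraries.

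Other genes of the actin system were read by role on day 3 against day 0, with no test between roles. Of 21 partners of actin in the thin filament and Z disc, 3 were higher and 12 lower, with a median of -0.86. The 3 higher were Tnnt2, cardiac troponin T, by 5.76, Tnni1, slow troponin I, by 3.85 and Tnnc1, slow and cardiac troponin C, by 2.96, while the fast forms Tnni2, Tnnc2 and Tnnt3 fell by 2.18, 1.99 and 2.12 on the log2 scale. The other 9 that fell included the tropomyosins Tpm1 (-2.17) and Tpm2 (-1.71) and Neb (-1.71), nebulin, which runs along the thin filament. Of 14 subunits of the CCT and prefoldin chaperones, which fold new actin, 7 were higher (Cct3 0.82) and 3 lower (Pfdn1 -0.997). The 7 higher were all CCT subunits and the 3 lower were all prefoldin subunits.

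Proteins that bind monomers or filament ends also split. Of 15, 9 were higher and 4 lower, led by Tmsb10, the monomer-binding thymosin beta-10, at 5.25 and Pfn2, a profilin, at -2.41. Of 9 Arp2/3 complex subunits, which branch filaments, 7 were higher (Arpc1b 2.10) and 1 lower (Arpc5l -1.54). Of 10 formins, which elongate filaments, 2 were higher (Daam2 2.43) and 2 lower (Diaph1 -0.80), leaving out the call of Diaph3. That gene passed the filter on low values only through days 3 and 5, and with it 3 were higher. Of 4 tested genes of SRF and its cofactors, 0 were higher and 2 lower, Abra (-2.09), a muscle protein that activates SRF through MRTF, and Srf itself (-0.58). Setd3, the enzyme that methylates a histidine of actin, fell by 0.95 on the log2 scale. Of 8 tested actin-related proteins outside the Arp2/3 list, 0 were higher and 2 were lower (Actr1b -1.24). These counts stand beside the 48.8% of all genes called.

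Cell type markers were read on day 3 against day 0, where 48.8% of all genes were called (24.5% higher and 24.3% lower). All 10 adult fibre markers were lower, with Mb, myoglobin, at -3.78, and their sum went from 53413 and 45210 FPKM to 13734 and 9249 FPKM. All 7 regenerating fibre markers were higher, with Chrng, the fetal acetylcholine receptor subunit, at 7.10, and their sum went from 20.2 and 45.8 FPKM to 1010 and 1555 FPKM. All 10 macrophage and leukocyte markers were higher, with Tyrobp at 4.95, and their sum went from 51.4 and 99.5 FPKM to 1666 and 1626 FPKM. Of 5 myoblast markers, 4 were higher (Myod1 2.28), while their sum went from 778 and 836 FPKM to 566 and 762 FPKM, most of it Des, desmin, which was not called (-0.50). Of 5 endothelial markers, 2 were lower (Kdr -1.82). The part of these shifts in cell content in the actin levels was not tested.

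**Figure D3:**
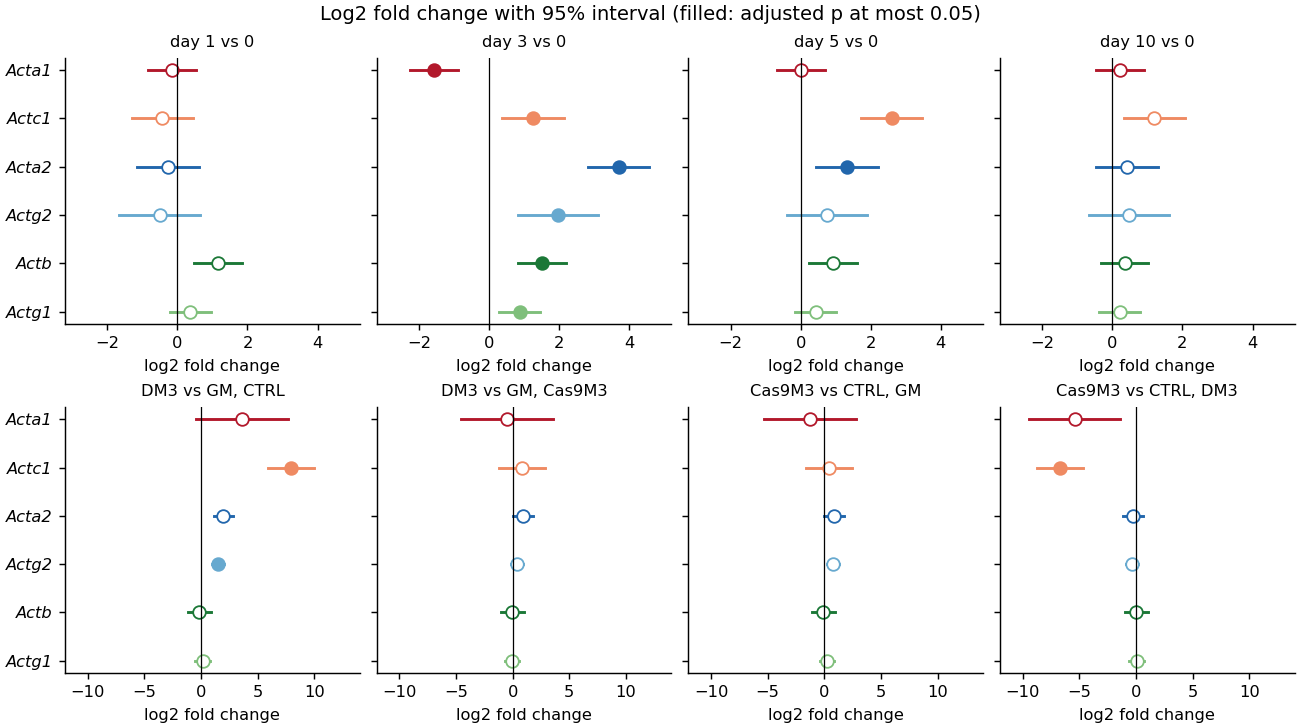
Log2 fold change of each actin gene on the log2(FPKM + 0.1) scale with its 95% interval, for the 4 days against day 0 (top) and for the 4 C2C12 comparisons (bottom, wider axis). Filled points passed an adjusted p of at most 0.05, which the 5 genes other than Actg2 did on day 3 (Actg2 is also filled there, but was tested only because its day 3 values were high), Actc1 and Acta2 on day 5, Actc1 and Actg2 for DM3 against GM in CTRL, and Actc1 alone for Cas9M3 against CTRL at DM3.

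C2C12 cells had a different actin makeup, in which the cytoplasmic and smooth muscle pairs held most of the RNA. In CTRL GM cells the cytoplasmic pair held 72.0% and 76.3% of the summed FPKM and the smooth muscle pair 21.97% and 23.3%. At DM3 these shares were 42.6% and 36.2% for the cytoplasmic pair and 44.3% and 51.9% for the smooth muscle pair. Nearly all of the smooth muscle share was Acta2, and Actg2 held 0.332% to 0.553% of the sum in the 8 libraries. The sarcomeric pair held 6.04% and 0.386% in CTRL GM cells and 13.1% and 11.97% in CTRL DM3 cells. In Cas9M3 cells it held 2.70% and 0.104% in GM and 0.386% and 0.259% at DM3. The sarcomeric share of both Cas9M3 DM3 libraries was therefore below that of both CTRL DM3 libraries, while the GM libraries of both constructs ranged widely.

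The C2C12 cells were checked against cell type markers. All 5 endothelial markers and 7 of 10 macrophage markers were below 0.5 FPKM in every library. Of the 9 smooth muscle contractile genes, Myh11 was below 0.5 FPKM in every library and Cnn1 in 3 of the 4 groups, and the sum of the 9 was 131 to 275 FPKM. The mural markers summed to 96.7 to 172 FPKM and the fibroblast and matrix markers to 599 to 1764 FPKM. Pax7, a satellite cell factor, was also below 0.5 FPKM, while the summed myoblast markers were at 15.0 to 157 FPKM. Acta2 was the 9th highest gene of the transcriptome in both CTRL DM3 libraries.

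Acta1 was at 106 and 9.24 FPKM in CTRL GM cells and at 414 and 362 FPKM at DM3. In Cas9M3 cells it was at 67.2 and 2.41 FPKM in GM and at 10.3 and 7.89 FPKM at DM3. The first GM library of each construct was thus more than 10 times the second, and it was the second libraries that had the higher rRNA share. The part of that difference in the GM values was not tested. At DM3 the 2 libraries of each construct lay close together, and the CTRL mean was 42.8 times the Cas9M3 mean.

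Despite this gap, Acta1 did not pass at DM3 (log2 difference -5.41, 95% interval -9.44 to -1.38, SE 1.668, adjusted p = 0.163) in the fit whose spread takes in the GM libraries. With only the 4 DM3 libraries in the fit it passed (adjusted p = 5.94e-04). The difference of Acta1 between DM3 and GM was 3.63 in CTRL cells (SE 1.668, adjusted p = 0.305) and -0.51 in Cas9M3 cells (adjusted p = 0.963), and neither passed.

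Actc1 was almost silent in every group but CTRL DM3. It stood at 0.389 and 0.192 FPKM in CTRL GM cells, which is 20 and 3 reads, and at 95.9 and 86.1 FPKM in CTRL DM3 cells. In Cas9M3 cells it stood at 1.16 and 0.101 FPKM in GM, which is 59 and 3 reads, and at 1.09 and 0.547 FPKM at DM3, which is 49 and 13 reads. The CTRL DM3 libraries were far above the other 6, which overlapped. The change from GM to DM3 in CTRL was 7.91 on the log2 scale (SE 0.836, adjusted p = 0.0228), where 1.14% of the 13824 genes tested were called (0.767% higher) and 411 instead of 158 genes with the replicate number as a block. The difference between Cas9M3 and CTRL at DM3 was -6.70 (SE 0.836, adjusted p = 0.0262), where 1.98% of genes were called (0.687% lower) and 505 instead of 274 with the block. The ratio of the Cas9M3 to the CTRL value at DM3 was 0.0113 in the first libraries and 0.00635 in the second. The call at DM3 was lost when any 1 of the 4 DM3 libraries was left out (adjusted p = 0.235 to 0.295), when the fit held 0 called genes. The call from GM to DM3 in CTRL was lost when either DM3 library was left out (adjusted p = 0.216 and 0.29) and with only the 4 CTRL libraries in the fit (adjusted p = 0.0786).

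In the sarcomeric pair, Actc1 made up 0.367% and 2.04% in CTRL GM cells and 18.8% and 19.2% in CTRL DM3 cells. In Cas9M3 cells it made up 1.69% and 4.02% in GM and 9.56% and 6.48% at DM3. The CTRL DM3 libraries had the highest share and the Cas9M3 DM3 libraries the next, without overlap with the GM groups. With 3 to 59 reads on Actc1 outside CTRL DM3, the other shares are coarse.

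**Figure D4:**
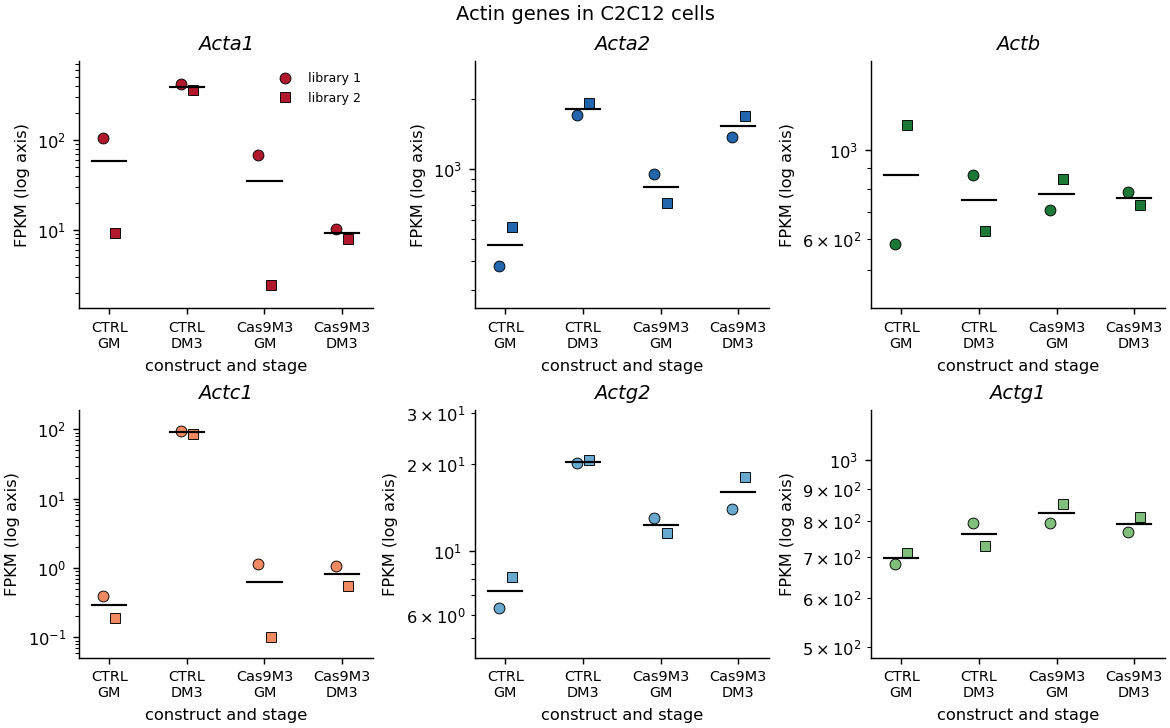
FPKM (log axis) of the 6 actin genes in C2C12 cells with CTRL or Cas9M3 constructs in GM and at DM3, with a circle and a square for the 2 libraries of a group and a bar for their mean. Acta1 and Actc1 are highest in CTRL DM3 cells, and Acta2 and Actg2 are higher at DM3 than in GM in both constructs. The means of Actb and Actg1 differ little between groups, while the 2 CTRL GM libraries of Actb lie far apart.

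Acta2 was at 379 and 562 FPKM in CTRL GM cells and at 1708 and 1922 FPKM at DM3. In Cas9M3 cells it was at 951 and 715 FPKM in GM and at 1367 and 1692 FPKM at DM3. Both DM3 groups lay above both GM groups, and the Cas9M3 GM libraries lay above the CTRL GM libraries. The change with differentiation was 1.97 in CTRL (SE 0.359, adjusted p = 0.0682, 0.0442 with the replicate block and 0.0282 without the first CTRL GM library) and 0.88 in Cas9M3 (SE 0.359, adjusted p = 0.387). The difference between constructs was 0.84 in GM (adjusted p = 0.566) and -0.25 at DM3 (95% interval -1.12 to 0.61, adjusted p = 0.812).

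Actg2 followed the same order at a far lower level. It was at 6.34 and 8.11 FPKM in CTRL GM cells, 20.03 and 20.6 FPKM in CTRL DM3 cells, 13.0 and 11.5 FPKM in Cas9M3 GM cells and 13.96 and 18.01 FPKM in Cas9M3 DM3 cells. The 4 groups did not overlap, in the order CTRL GM, Cas9M3 GM, Cas9M3 DM3 and CTRL DM3. Its rise in CTRL was 1.49 on the log2 scale (SE 0.208, adjusted p = 0.0394). It was lost with only the 4 CTRL libraries in the fit (adjusted p = 0.228) and without either CTRL DM3 library (adjusted p = 0.345 and 0.403). In Cas9M3 cells the change was 0.37 (adjusted p = 0.567), in a comparison where 0.0289% of genes were called (0.0145% higher and 0.0145% lower). Without the replicate block 4 genes were called there, and 9 with it. Whether the change differed between the constructs was tested with the interaction, which was -1.11 and did not pass (adjusted p = 0.371).

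Actb and Actg1 had the smallest log2 differences of the 6 genes in every C2C12 comparison, though the 2 CTRL GM libraries of Actb lay far apart. Actb was at 580 and 1156 FPKM in CTRL GM cells, 869 and 628 FPKM in CTRL DM3 cells, 706 and 848 FPKM in Cas9M3 GM cells and 785 and 730 FPKM in Cas9M3 DM3 cells. The 2 CTRL GM libraries bracketed all 6 others. Actg1 was at 682 and 709 FPKM, 793 and 728 FPKM, 792 and 851 FPKM, and 767 and 810 FPKM in the same order of groups, with CTRL GM lowest. Neither gene was called in any C2C12 comparison. The log2 differences of the 2 genes were at most 0.24 in size, the value of Actg1 between Cas9M3 and CTRL in GM (95% interval -0.40 to 0.88). Under quantile normalization Actg1 differed by 0.61 there and by 0.845 between DM3 and GM in CTRL, and Actb by 0.62 in the latter, none of which passed. The intervals of Actb were wider, as between constructs at DM3 (0.04, 95% interval -0.96 to 1.03, SE 0.412). They are not adjusted over all genes, so changes beyond them could also have gone uncalled. Acta2, with a smaller SE of 0.359, changed by 1.97 from GM to DM3 in CTRL and was not called by limma (adjusted p = 0.0682). Actb was 46.0% to 62.0% of the cytoplasmic pair in C2C12 cells, against 65.9% to 79.5% in muscle.

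**Figure D5:**
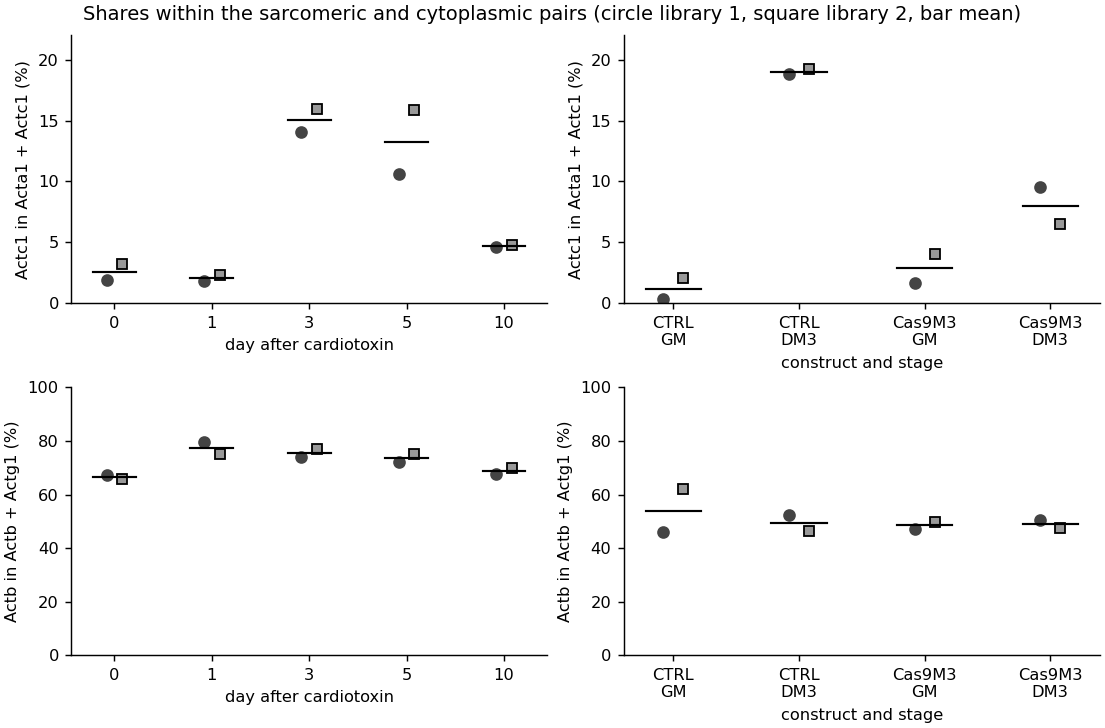
Actc1 as a percent of Acta1 + Actc1 (top) and Actb as a percent of Actb + Actg1 (bottom), in muscle by day (left) and in C2C12 cells by group (right), with a circle and a square for the 2 libraries and a bar for their mean. The Actc1 share is highest on days 3 and 5 and in CTRL DM3 cells, and the Actb share lies between 65.9% and 79.5% in muscle and between 46.0% and 62.0% in C2C12 cells.

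Between constructs, the count of actin genes called was 0 of 6 in GM and 1 of 6 at DM3. By limma, 0 genes of the transcriptome passed in GM, with 1244 at an unadjusted p under 0.05, and 1.98% of genes passed at DM3. Mettl3 itself was not called in GM, at 4.70 and 5.65 FPKM in CTRL and 0.331 and 0.118 FPKM in Cas9M3 cells. The count of 0 in GM therefore does not show that the constructs were alike there. The difference of the Cas9M3 effect between DM3 and GM called 0 genes (0%), with 1198 at an unadjusted p under 0.05. For Actc1 that difference was -7.11 on the log2 scale (SE 1.183, adjusted p = 0.266, and 0.180 with the replicate block), so the effect at DM3 was not shown to differ from that in GM. The CTRL DM3 libraries enter both the differentiation and the construct comparison.

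Of 19 tested thin filament and Z disc partners of the sarcomeric actins, 0 were higher and 5 lower in Cas9M3 than in CTRL cells at DM3. Their median was -3.79 against -0.05 over all genes. Neb, not among the 5, passed the filter on low values only through the CTRL DM3 libraries. Its test is therefore void, though the 19 and the median include it. The 5 were the troponins Tnni2 (-5.89), Tnnc2 (-4.98), Tnnc1 (-4.36) and Tnnt2 (-4.34), and Tmod1 (-3.36), the pointed-end cap. Of 7 tested adult fibre markers, 1 was lower (Ckm, the muscle creatine kinase, -5.14), of 4 myoblast markers, 1 was lower (Myod1, the myogenic regulator, -2.80), and of 6 regenerating fibre markers, 0 were called, with a median of -4.74. These counts stand beside 1.98% of all genes, and 0 genes were called without any 1 of the 4 DM3 libraries. The summed adult fibre markers were at 235 and 275 FPKM in CTRL DM3 cells and 9.58 and 6.91 FPKM in Cas9M3 DM3 cells, and the summed regenerating fibre markers were at 367 and 319 FPKM against 16.8 and 13.8 FPKM. In the CCT and prefoldin, monomer-binding, Arp2/3, formin, SRF and actin-related lists, 0 genes were called in this comparison, with medians between -0.44 and 0.00. The SRF median includes Abra, which also passed the filter only through CTRL DM3.

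For differentiation of CTRL cells, 0 of the 19 thin filament and Z disc genes passed, with a median log2 difference of 2.82 that again includes Neb. This was read beside 1.14% of all genes called, a count that was 0 without either CTRL DM3 library. Of 8 tested smooth muscle contractile genes, 2 were higher, Myl9, the regulatory light chain, by 3.16 and Synpo2 by 2.52. Of 4 myoblast markers, Cdh15 (4.49) and Myod1 (3.55) were higher.

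The genes whose pattern was most like that of each actin were found by Pearson's r of log2(FPKM + 0.1) among genes with a mean of at least 5 FPKM. These are descriptions over libraries that share days or groups. Over the 10 muscle libraries and 5865 genes, Acta1 was most like Hspb6 (0.988), Herc3 (0.983) and Iars2 (0.983), and Actc1 most like Tceal5 (0.971), Maged2 (0.959) and Mtch1 (0.959). Genes most like Acta2 included Slc29a1 (0.980) and Jam3 (0.977). Actg2, which rested on at most 39 reads in a muscle library, was most like Gm17080 (0.974), Gpx7 (0.958) and Csrp2 (0.943). Actb was most like Tubb5, a beta-tubulin (0.994), Anxa2 (0.990) and Arpc5, an Arp2/3 subunit (0.988), and Actg1 most like Actn1, a non-muscle alpha-actinin (0.962), Rpl3-ps1 (0.962) and Adam17 (0.959).

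Over the 8 C2C12 libraries and 7398 genes, Acta1 was most like Actn3, the alpha-actinin of fast fibres (0.993), Myl1, an essential light chain (0.988), and Lims1 (0.988). Actc1 was most like Myod1 (0.995), Arhgap28 (0.994) and Chrnb1, a muscle acetylcholine receptor subunit (0.988). Acta2 and Actg2 were most like each other (0.982), ahead of Nkd2 (0.975) for Acta2 and Fads3 (0.974) for Actg2, and then Ankrd1 (0.970) for Acta2 and Nkd2 (0.966) for Actg2. Actb was most like Ube2d2a (0.944), Gm29216 (0.924) and Gm5526 (0.923), and Actg1 most like Angptl2 (0.931), Trak1 (0.926) and Slc25a51 (0.921).

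The actin genes kept these pairings only in part. Acta2 with Actg2 had r of 0.938 in muscle, where Actg2 rested on at most 39 reads in a library, and 0.982 in C2C12 cells. Actb with Actg1 had 0.898 in muscle and 0.182 in C2C12 cells. Acta1 with Actc1 had -0.03 in muscle and 0.837 in C2C12 cells. In muscle the sarcomeric pair was thus the pair with the least similar pattern, with Acta1 lowest on day 3 and Actc1 highest on day 5.

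In the order of levels, Acta1 led and Actg2 was last in all 10 muscle libraries. Actc1 was second in 9 of them, and in the first day 1 library Actb stood above it. On day 3, Acta2 passed Actg1 in both libraries and Actb in the second, so Acta2 and Actb do not differ beyond their spread on that day. In the first day 5 library, too, Acta2 stood above Actg1. In C2C12 cells, Acta2 led in both DM3 groups and in the first Cas9M3 GM library, and Actb or Actg1 led in the other GM libraries. Actg1 and Actb changed places from library to library, so their order there is within the spread. Actc1 was last in every C2C12 library outside CTRL DM3, where Actg2 was last.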

How the data were processed

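RNA was extracted with TRIzol and libraries were made with the SMARTER mRNA-seq kit. HISAT2 was used by the authors for alignment to GRCm38 and featureCounts for counting, and the deposited values are FPKM from DESeq2. Tool versions, strand setting and handling of multi-mapped reads are not given in the sources used here. Samples were grouped by the labels. The 8 Mettl3 and GFP overexpression libraries were not analysed here. The 6 genes and the gene lists were chosen with earlier results of these data known.

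Tests covered 16753 genes in muscle and 13824 in C2C12 cells, those reaching 0.5 FPKM in 2 or more libraries. Values plus 0.1 were taken to log2 and fitted with limma 3.58.1 (lmFit, eBayes with a trend) in R 4.3.3, all groups of a table together, with Benjamini-Hochberg adjustment. The count test of the study was not used because the values are FPKM. With 2 libraries a side, no exact permutation p can be under 0.333, so every p rests on the model. Shares were computed per library and not tested. One read was taken as the step in low values, of which 97.04% to 98.93% were whole within 0.05. Depth was not used in any test, and gene lengths were the union of GENCODE M21 exons. The fit was tested on simulated data. Python 3.11.15, pandas 2.3.3, numpy 2.4.6 and matplotlib 3.10.9 were used.

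Named list genes are the largest rise and the largest fall among those called, and for likeness the 3 highest r, of which 1 gene is not reported here. Other list genes (Myh11, Srf, Tnni1, Tnnc1, Tnnc2, Tmod1 and second members) were named after their values were seen. Same-numbered C2C12 libraries deviated together from their group means (r 0.278 to 0.680 over genes in all 6 pairs of groups), so the numbers pair them by this measure, and no source gives a reason. Alternatives were pseudocounts of 1 and 0.01, no filter or 1 FPKM, median-ratio and quantile scaling, only the groups compared, the replicate block, a term for Xist, and leaving out each library. For shares they were reads in place of FPKM and pseudogenes added. Scaling by total reads was not run, and median-ratio scaling stayed near the main fit, with 8194 against 8179 genes called between days 3 and 0.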

Additional observations from a re-analysis of the deposited data

How the results depend on the processing

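Depth and 2 libraries per group limit these results, since 1 read on a gene of 1 kb was worth up to 0.103 FPKM and Actc1 outside CTRL DM3 cells rested on 3 to 59 reads. Of the members' log2 fold changes recomputed under the other settings, 546 kept their direction and their side of the threshold, 32 lost the call, 13 gained one and 10 turned direction. Without 1 library at a time, the same counts were 237, 36, 4 and 27. Both sets of counts include the void day 3 tests of Actg2. Where no other reason is given, the cause was not tested.

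Counts of genes called moved as follows. With a pseudocount of 1, 0 were called between days 10 and 0, 453 between Cas9M3 and CTRL at DM3, 254 between DM3 and GM in CTRL and 94 in Cas9M3. With a pseudocount of 0.01, 15 were called between days 10 and 0 and 2 between DM3 and GM in Cas9M3. Without a filter on low values, 418 were called between days 1 and 0, 28 between days 10 and 0, 105 between DM3 and GM in CTRL and 16 in Cas9M3. Quantile normalization gave 624 for days 1 and 0 and 41 for DM3 and GM in Cas9M3. The term for Xist gave 0 for days 1 and 0, days 5 and 0, days 10 and 0, and days 5 and 3, then 1369 for days 3 and 1 and 3923 for days 10 and 3. Only the groups compared gave 11 for days 1 and 0, 0 for days 10 and 0, 3636 for days 5 and 3, 2828 for Cas9M3 and CTRL at DM3, and 0 for DM3 and GM in either construct.

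With the replicate number as a block, 2 genes were called between days 10 and 0, 505 between Cas9M3 and CTRL at DM3, 411 between DM3 and GM in CTRL and 9 in Cas9M3. The block brought the rise of Acta2 in CTRL (1.97) past the threshold at adjusted p = 0.0442, and it changed no other call of an actin gene in C2C12 cells. In muscle the same-numbered libraries share only a number, with correlations of -0.02 to 0.211. There the block brought the rise of Actc1 between days 5 and 3 (1.34, adjusted p = 0.0293) past the threshold. For Actg2, whose tests with day 3 are void, the log2 difference between days 10 and 3 was -1.49 with the block and -1.23 with the term for Xist.

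Among the actin genes on day 3 against day 0, the values were as follows. No filter gave -1.56 for Acta1 (adjusted p = 0.419) and 1.26 for Actc1 (adjusted p = 0.067). The term for Xist gave 1.42 for Actc1 and 0.74 for Actg1, at adjusted p = 0.0637 and 0.119. It gave 1.70 for Actg2, whose test on day 3 is void. Only the groups compared gave 1.26 for Actc1 and 0.88 for Actg1, at adjusted p = 0.0549 and 0.0523. Quantile normalization moved the median of all genes by -0.12 on the log2 scale in this comparison and, by construction, fixes the values of the highest genes, among them Acta1. It turned Acta1 to 0.084 on day 3 and to 0.26 on day 1 against day 0, Actg2 to -0.039 on day 5 against day 0 and Actc1 to -0.067 on day 5 against day 3. In C2C12 cells it turned Actb to 0.25 between constructs in GM, -0.40 at DM3, 0.62 between DM3 and GM in CTRL and -0.65 for the difference of the 2 construct effects, and Actg1 to -0.27 at DM3. It gave -0.88 for Actg1 in the difference of the construct effects, and -1.78 for Actc1 between days 10 and 3 (adjusted p = 0.0145). It brought Acta2 in CTRL (2.60, adjusted p = 0.0166) past the threshold. The term for Xist turned Acta2 on day 1 to 0.13. For DM3 against GM in CTRL, no filter gave 1.49 for Actg2 (adjusted p = 0.0565) and only the groups compared gave 7.91 for Actc1 (adjusted p = 0.0786) and 1.49 for Actg2 (adjusted p = 0.228). For Cas9M3 against CTRL at DM3, only the groups compared gave -5.41 for Acta1 (adjusted p = 5.94e-04).

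Shares computed from reads in place of FPKM weigh each gene by its length. The cytoplasmic share went from 0.936% to 1.61% on day 0, 2.01% to 3.45% on day 1, 5.49% to 8.97% on day 3, 1.39% to 2.38% on day 5 and 1.00% to 1.73% on day 10. The sarcomeric share was 98.2%, 96.4%, 85.6%, 97.2% and 98.0% on days 0, 1, 3, 5 and 10, 8.455% in CTRL DM3 cells and 0.205% in Cas9M3 DM3 cells. The smooth muscle share was 0.190%, 0.178% and 5.48% on days 0, 1 and 3, 19.6% in CTRL GM cells and 44.8% in Cas9M3 DM3 cells. Actc1 was 4.97% of the sarcomeric pair on day 10 and 19.8% in CTRL DM3 cells.

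Leaving out each library in turn gave these ranges. Genes called ranged from 9 to 1829 between days 1 and 0, 5097 to 6966 between days 3 and 0, 19 to 3382 between days 5 and 0, 0 to 2 between days 10 and 0, 1275 to 4192 between days 3 and 1, 0 to 567 between days 5 and 3, and 3244 to 5919 between days 10 and 3. They ranged from 0 to 24 between constructs in GM, 0 to 0 at DM3, 0 to 3696 between DM3 and GM in CTRL and 0 to 2 in Cas9M3. The highest value in CTRL, 3696, came without the first CTRL GM library, the lowest without the first CTRL DM3 library. On day 3 against day 0, Actc1 ranged from 0.76 to 1.75, Actg1 from 0.54 to 1.21 and Actg2 from 1.75 to 2.17. On day 1 against day 0, Acta2 ranged from -0.55 to 0.035, Actc1 from -0.93 to 0.07 and Actg2 from -1.02 to 0.005. Against day 0, Acta1 ranged from -0.089 to 0.12 on day 5, and Acta2 from -0.058 to 0.90 and Actg1 from -0.13 to 0.55 on day 10. Actc1 ranged from -0.22 to 0.12 between days 10 and 3. Between constructs at DM3, Actc1 ranged from -7.14 to -6.26, Actb from -0.20 to 0.27 and Actg1 from -0.008 to 0.12, and in GM Acta1 ranged from -3.65 to 1.10, Actb from -0.58 to 0.42 and Actc1 from -0.91 to 1.73. Between DM3 and GM in CTRL, Actc1 ranged from 7.54 to 8.28, Acta2 from 1.69 to 2.26, Actg2 from 1.31 to 1.66 and Actb from -0.65 to 0.35. In Cas9M3, Acta1 ranged from -2.89 to 1.86, Actc1 from -0.52 to 2.12 and Actb from -0.16 to 0.10. Actb ranged from -0.38 to 0.62 for the difference of the construct effects. A lone library was assumed to vary like the other groups.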
